A study of Mus musculus with 2 samples.

Results

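The genes described here are the core genes of apoptosis, the regulated death programme of cells: the Bcl2 family, the caspases with their activators and inhibitors, and genes around the tumour suppressor p53. They were taken from a list of 40 mouse gene symbols, and a gene was included where the array annotation assigned a probe set to that symbol alone. This held for 38 of the 40 genes, out of 18193 genes on the array; Bax and Trp53 were not analysed here. The 38 genes were covered by 90 probe sets.

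There were 2 groups, each of 1 culture on 1 Affymetrix mouse array. Primary mouse osteoblasts, the cells that build bone, were kept for 6 hours in medium conditioned by PC-3 cells or in medium conditioned by MDA-PCa2b cells. Both cultures had first spent 10 days in differentiation medium that held beta-glycerophosphate (10 mM), ascorbic acid (50 µg/ml) and 10% fetal calf serum, and were then starved of serum overnight. PC-3 and MDA-PCa2b are established human cell lines grown from bone metastases of prostate cancer, the first known for bone-destroying and the second for bone-forming lesions. The sources used here gave no strain, age or number of mice. No array of osteoblasts in plain medium was used here, and "higher" and "lower" below say where PC-3 medium stood against MDA-PCa2b medium.

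Mitochondrial apoptosis is held in check by Bcl2 and its survival relatives, which bind and restrain the pore-forming members of the family. BH3-only members, named after the single helix they share with the rest of the family, are induced or activated by stress and tip the balance towards pores in the mitochondrial membrane. Cytochrome c then leaves the mitochondrion and, with Apaf1, activates caspase-9 and the executioner caspases, while death receptors at the cell surface act through caspase-8. In bone, osteoblast apoptosis limits how long a cell makes matrix. Caspases are made as inactive precursors, so a transcript level is no measure of cell death.

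Values are probe set signals on a linear scale. A signal counted as measured when it lay above the median of its array, which was 57.7 with PC-3 medium and 56.7 with MDA-PCa2b medium. The log2 ratio of a gene is log2 of its PC-3 signal over its MDA-PCa2b signal, taken from the gene's brightest probe set. With 1 array per medium there was no replicate error and no test between the media. The one available yardstick of measurement error was how far different probe sets for 1 gene scattered, with an SD of 0.24 log2 units over 4924 genes and 0.20 among the genes described here. It does not hold the spread between cultures or errors that the probe sets of a gene share. It rests on genes with several measured probe sets, which Casp4, Ier3, Gadd45a and Phlda1 below do not have.

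Of 10 osteoblast markers 7, among them Col1a1 and Ibsp, were measured on both arrays, and 3 were not analysed here. The log2 ratios of these 7 were all below 0, from -0.68 for the transcription factor gene Sp7 to -0.0041 for Col1a1, with summed signals of 87894 with PC-3 medium and 91648 with MDA-PCa2b medium. All 7 macrophage markers, among them Lyz2, Csf1r and Ptprc, were measured too. Of 5 adipocyte markers 3 were measured on both arrays, Pparg on the MDA-PCa2b array alone, and 1 was not analysed here. Of the 3, Lpl had a log2 ratio of -0.33, Adipoq of 0.47 and Fabp4 of 0.98. The 4 signals summed to 2806 with PC-3 medium and 3078 with MDA-PCa2b medium, most of it from Lpl with 2107 and 2652. Of the endothelial and lymphocyte markers none was above the floor on either array, and 2 of 5 skeletal muscle markers were above it on 1 array. The part of other cell types in the results below was not tested. As a check of RNA integrity, beta-actin gave 1.504 times as much signal at its 3' end as at its 5' end with PC-3 medium and 1.399 times as much with MDA-PCa2b medium; for Gapdh these were 0.72 and 0.73.

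Of the 38 apoptosis genes, 35 were measured on both arrays, 1 on the PC-3 array alone and 2 on neither. Among these 36 genes 5 (13.9%) were higher by 2-fold or more, and none was lower by as much. Over all 11335 measured genes the corresponding shares were 2.12% and 1.85%. At a threshold of 1.5-fold 10 apoptosis genes (27.8%) were higher and 2 (5.56%) lower, beside 5.59% and 6.56% of all genes. The median log2 ratio was 0.22 against -0.04 for all genes, and 27 of the 36 genes had a ratio above 0, against 44.4% of all genes. The genes at least 2-fold higher were the inflammatory caspase gene Casp4, the stress-response genes Ier3, Gadd45a and Phlda1, and the BH3-only gene Bcl2l11. Of these 5, Bcl2l11 is a gene of the core death machinery, and Gadd45a is also known as a p53 target.

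**Figure D1:**
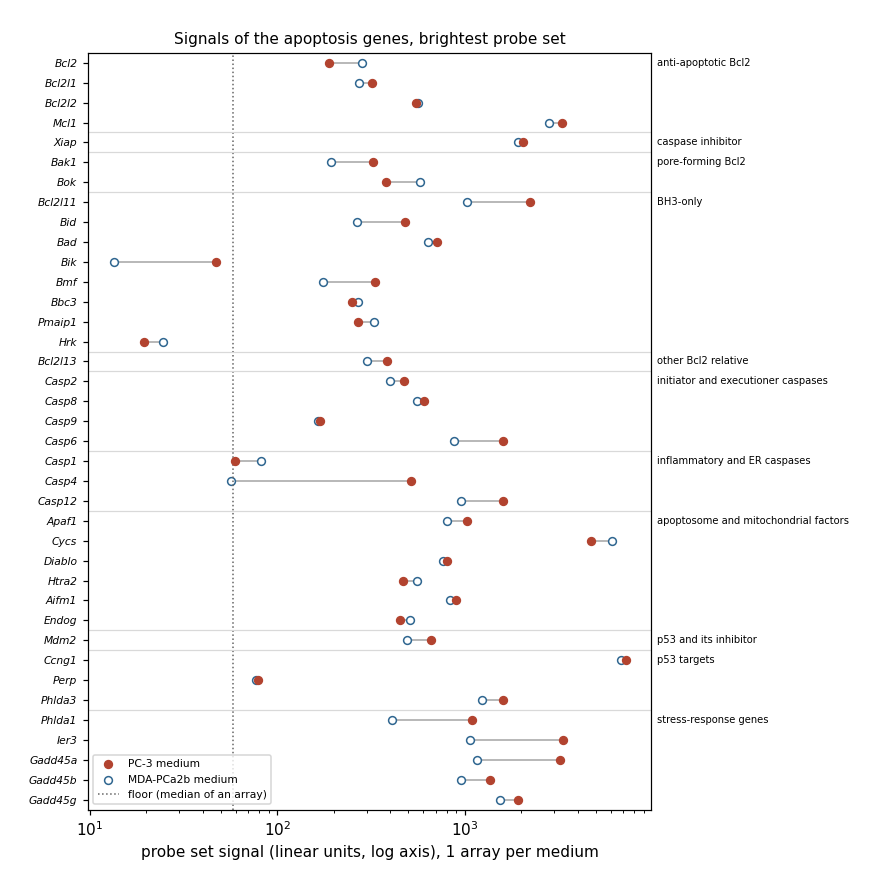
Signals of the 38 apoptosis genes by their brightest probe set on a log axis, with PC-3 medium (filled) and MDA-PCa2b medium (open), 1 array each, ordered by role; the dotted line marks the floor of 57.7. The widest gap is that of Casp4, at 515 against 56.7, while Bcl2l2, Casp9 and Perp show nearly coinciding points.

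The survival side of the Bcl2 family showed no common direction. Bcl2, the founding survival gene, gave signals of 188 with PC-3 medium and 284 with MDA-PCa2b medium, 1.51-fold lower. All 4 of its measured probe sets were lower, with log2 ratios from -0.64 to -0.42. With PC-3 medium all but the brightest lay near the floor, at 63.1 to 76.9. Mcl1, a survival protein with a very short half-life, had signals of 3288 with PC-3 medium and 2820 with MDA-PCa2b medium. Its 6 probe sets all gave ratios above 0 and lay close together, from 0.20 to 0.28. Bcl2l1, the gene of Bcl-xL, gave 319 with PC-3 medium and 273 with MDA-PCa2b medium. Its other measured probe sets ran the other way, with log2 ratios of -0.35 and -0.13. These were dimmer, with signals of 79.2 and 59.7 with PC-3 medium and 101 and 65.4 with MDA-PCa2b medium. Bcl2l2, the gene of Bcl-w, was level at 551 and 560 (log2 ratio -0.02). Xiap, which blocks caspases directly, had signals of 2040 with PC-3 medium and 1912 with MDA-PCa2b medium, and its other measured probe sets gave 0.29 and -0.36. The last came from signals near the floor, 64.4 with PC-3 medium and 82.8 with MDA-PCa2b medium.

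Among the pore-forming members the measured pair went in opposite directions. Bak1, whose product sits in the outer mitochondrial membrane, had signals of 322 with PC-3 medium and 194 with MDA-PCa2b medium, 1.67-fold higher. Bok, a relative found largely at the endoplasmic reticulum, had 379 with PC-3 medium and 576 with MDA-PCa2b medium, 1.52-fold lower. Each rested on a single measured probe set. Bok and Bcl2 were the only 2 apoptosis genes at least 1.5-fold lower, and both were so close to that threshold that neither passed it once the median ratio of all genes was set to 0.

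Of 6 measured BH3-only genes 3 were at least 1.5-fold higher and none lower by as much, beside 5.59% and 6.56% of all genes. Bcl2l11, which encodes Bim, a binder of all survival relatives, gave signals of 2214 with PC-3 medium and 1031 with MDA-PCa2b medium, 2.15-fold higher. Its brightest probe set gave a log2 ratio of 1.10, and 3 of its other 4 probe sets gave 0.72, 0.65 and 0.42; the dimmest, with signals of 142 with PC-3 medium and 70.8 with MDA-PCa2b medium, differed 2-fold. All of its 5 probe sets therefore showed 1 direction, and the size of the difference depended on the probe set: the mean over them was 0.78, under 2-fold. Bmf, whose product is tied to the cytoskeleton, had signals of 330 with PC-3 medium and 176 with MDA-PCa2b medium (1.87-fold higher). The value of Bmf rested on a single measured probe set. Bid, which links death receptors to the mitochondrion once caspase-8 cuts it, had 477 with PC-3 medium and 267 with MDA-PCa2b medium (1.79-fold higher), with a log2 ratio of 1.37 by another measured probe set. Bbc3 and Pmaip1, which encode Puma and Noxa and are known p53 targets, had ratios slightly below 0. Bbc3 had signals of 249 with PC-3 medium and 270 with MDA-PCa2b medium, and Pmaip1 270 and 329 (log2 ratios -0.12 and -0.28). Bad, whose product is silenced by growth factor kinases, had 711 with PC-3 medium and 638 with MDA-PCa2b medium. Bik and Hrk were below the floor on both arrays. The log2 ratio of Bcl2l13, a mitochondrial relative outside these classes, was 0.35 by one probe set and 0.01 by the other.

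**Figure D2:**
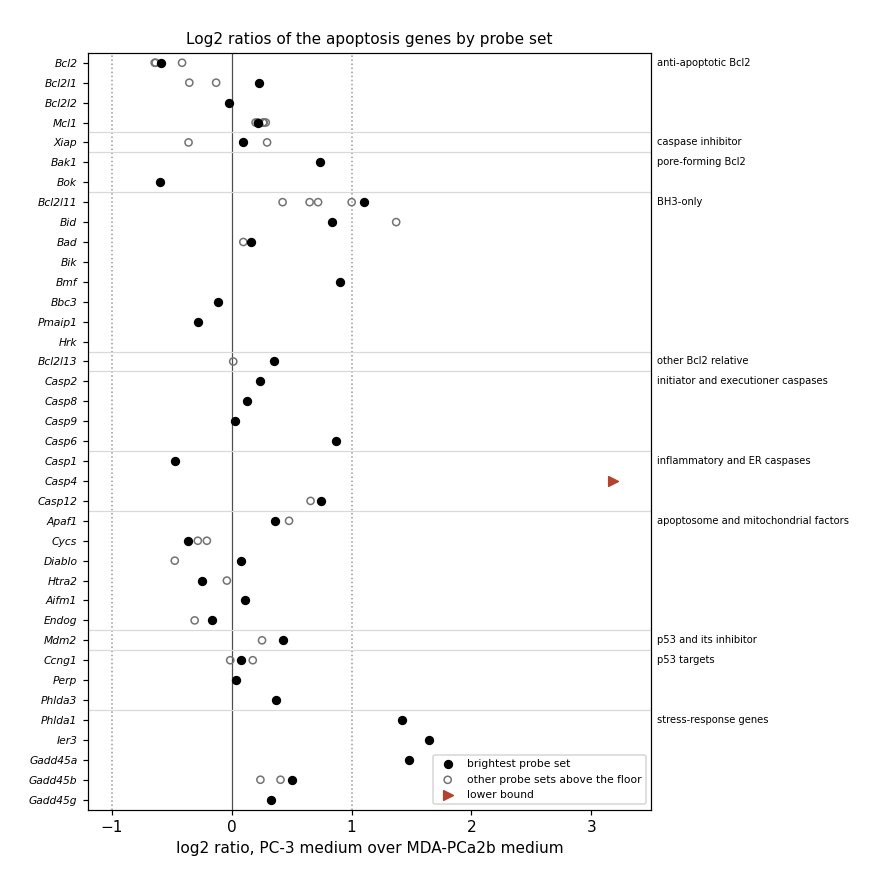
Log2 ratios, PC-3 over MDA-PCa2b medium, for each apoptosis gene: filled points are the brightest probe set, open points other probe sets measured on both arrays, and the arrowhead a lower bound; dotted lines mark 2-fold. The probe sets of Bcl2l11 all lie right of 0 and those of Bcl2 left of it, while those of Bcl2l1 and Xiap lie on both sides.

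Among the 4 caspase genes of the apoptotic cascade Casp6 alone differed by 1.5-fold or more, while 87.8% of all measured genes lay within 1.5-fold. This executioner caspase gene had signals of 1591 with PC-3 medium and 873 with MDA-PCa2b medium, 1.82-fold higher. Its second probe set was at the floor with PC-3 medium and barely above it with MDA-PCa2b medium. The initiator genes Casp2, Casp8 and Casp9 had log2 ratios of 0.24, 0.13 and 0.02. Casp8, which acts below death receptors, had signals of 607 with PC-3 medium and 555 with MDA-PCa2b medium, and Casp9, the apoptosome's caspase, 168 and 165.

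The caspases outside the apoptotic cascade held the largest difference of the whole group. Casp4, known in mouse also as caspase-11 and as the sensor of bacterial lipopolysaccharide in the cytosol, had a signal of 515 with PC-3 medium and of 56.7 with MDA-PCa2b medium. The lower signal lay just under the floor, so the difference was at least 9.09-fold, and 16 of all measured genes, Casp4 included, had a ratio or bound as high. It rested on 1 probe set, and the bound shrank to a log2 ratio of 0.79 with the floor at the 75th percentile, since that floor lies not far below the PC-3 signal. Casp12, a caspase gene linked to the endoplasmic reticulum, had signals of 1601 with PC-3 medium and 958 with MDA-PCa2b medium, 1.67-fold higher, with a log2 ratio of 0.66 by the second probe set. Casp1, the caspase that cuts interleukin-1 beta, did not share this direction: its signals were 59.2 with PC-3 medium and 82.3 with MDA-PCa2b medium, both near the floor. Macrophages are known to express Casp1 and Casp4. The 7 macrophage markers had summed signals of 15090 with PC-3 medium and 14812 with MDA-PCa2b medium, most of it from Lyz2 with 9416 and 9194. Their log2 ratios lay between -0.23 for Ptprc and 0.59 for Cd68, with a median of 0.06. The part of macrophages in the difference of Casp4 was not tested. In RNA of a whole culture, fewer cells of a type and less RNA per cell cannot be told apart.

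All 6 genes of the apoptosome and of factors released from mitochondria lay within 1.5-fold, as did 87.8% of all measured genes. Apaf1, the scaffold of the apoptosome, had the highest ratio, with signals of 1031 with PC-3 medium and 802 with MDA-PCa2b medium and log2 ratios of 0.36 and 0.48 by its probe sets. Cycs, the gene of cytochrome c, had the lowest, with 4719 with PC-3 medium and 6075 with MDA-PCa2b medium, and all 3 of its measured probe sets were below 0, from -0.36 to -0.21. Between them lay Aifm1 (log2 ratio 0.11), Diablo (0.07), Endog (-0.17) and Htra2 (-0.25). Aifm1 and Endog encode mitochondrial proteins linked to caspase-independent DNA breakdown, and Diablo and Htra2 encode antagonists of Xiap. The second measured probe set of Diablo gave -0.48, from signals near the floor, 62.0 with PC-3 medium and 86.2 with MDA-PCa2b medium.

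Survival and death genes had similar medians. The 5 survival genes had a median log2 ratio of 0.09 and the 18 measured death genes, that is pore-forming, BH3-only, apoptotic caspase and mitochondrial genes, a median of 0.12. The difference of the medians, death minus survival, was 0.02. At least 1.5-fold higher were 5 of the 18 death genes (Bcl2l11, Bmf, Casp6, Bid and Bak1) and 0 of the 5 survival genes, beside 5.59% of all genes; no difference between the classes was tested. In each class 1 gene, Bok and Bcl2, was at least 1.5-fold lower, beside 6.56% of all genes. The difference of medians depended on the choice of genes and probe sets. It was -0.10 with Mdm2 and Ier3 counted as survival genes and 0.14 with probe sets averaged.

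**Figure D3:**
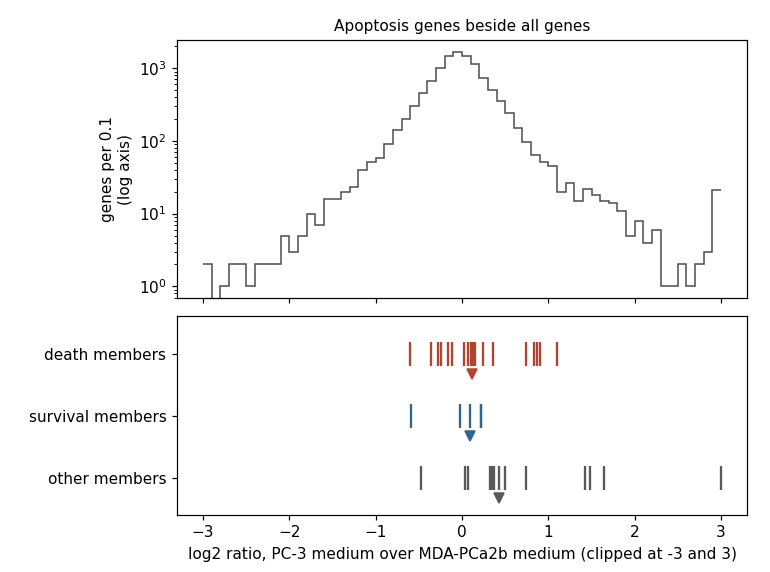
Upper panel, number of genes per 0.1 log2 units over all 11335 measured genes (log axis); lower panel, the measured apoptosis genes as ticks, with triangles at the medians of 0.12 for death, 0.09 for survival and 0.43 for the other genes. Ratios beyond 3 are drawn at the edge, which holds Casp4; the death genes reach 1.10 and the survival genes end at 0.23.

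The 4 other measured genes around p53 lay within 1.5-fold, as did 87.8% of all measured genes. Mdm2, which encodes the ubiquitin ligase that removes p53 and is itself a p53 target, had signals of 658 with PC-3 medium and 490 with MDA-PCa2b medium (log2 ratio 0.43, second probe set 0.25). Phlda3, a p53 target that restrains Akt, had 1590 with PC-3 medium and 1232 with MDA-PCa2b medium (0.37). Ccng1, the cyclin G1 gene and a classical p53 target, was level at 7191 and 6830 by its brightest probe set. Perp, a p53 target in cell adhesion and apoptosis, was level and close to the floor, at 79.0 and 76.9.

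All 5 stress-response genes had ratios above 0, beside 44.4% of all genes, and 3 of them were at least 2-fold higher, beside 2.12%. Ier3, an immediate-early gene that modulates survival downstream of NF-kB and growth factors, had signals of 3329 with PC-3 medium and 1063 with MDA-PCa2b medium, 3.13-fold higher. Gadd45a, a growth arrest gene induced through p53 by DNA damage and also by other stresses, had 3230 with PC-3 medium and 1157 with MDA-PCa2b medium, 2.79-fold higher. Phlda1, a pleckstrin-homology gene induced by growth factors, had 1090 with PC-3 medium and 407 with MDA-PCa2b medium, 2.68-fold higher. These ratios were as high as those of the top 0.741%, 1.02% and 1.15% of all measured genes, in this order. Each rested on a single probe set. The relatives of Gadd45a differed less. Gadd45b, a known NF-kB and TGF-beta target, had signals of 1356 with PC-3 medium and 958 with MDA-PCa2b medium, and its 3 probe sets gave log2 ratios of 0.50, 0.41 and 0.24. Gadd45g had 1924 with PC-3 medium and 1531 with MDA-PCa2b medium (0.33).

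Promoters of the genes at least 2-fold higher, other than Phlda1, were read from RefSeq (GRCm38.p6) to show which motifs of known stress regulators stand next to their start sites. For 32 of the 36 measured genes a promoter was matched by symbol, and the 250 bases before the first listed start were searched on both strands. The motifs were the 10-base NF-kB and p53 half-site consensus sequences, the STAT motif TTCNNNGAA and the AP-1 motif TGANTCA. The 3 promoters with a match among the genes at least 2-fold higher are printed 5′ to 3′ on the strand of the gene, with the matches in capitals.
Casp4, chr9:5308599-5308848, plus strand: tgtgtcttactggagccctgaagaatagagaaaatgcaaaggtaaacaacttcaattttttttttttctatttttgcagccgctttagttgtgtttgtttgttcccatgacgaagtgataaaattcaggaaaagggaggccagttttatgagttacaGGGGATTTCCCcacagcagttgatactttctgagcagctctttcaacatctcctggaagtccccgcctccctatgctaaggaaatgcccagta
Ier3, chr17:35821463-35821712, plus strand: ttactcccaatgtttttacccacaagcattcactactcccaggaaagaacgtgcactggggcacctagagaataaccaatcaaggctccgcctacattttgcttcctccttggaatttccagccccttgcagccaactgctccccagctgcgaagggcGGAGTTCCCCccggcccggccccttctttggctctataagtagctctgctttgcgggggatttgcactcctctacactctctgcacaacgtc
Gadd45a, chr6:67037408-67037657, minus strand: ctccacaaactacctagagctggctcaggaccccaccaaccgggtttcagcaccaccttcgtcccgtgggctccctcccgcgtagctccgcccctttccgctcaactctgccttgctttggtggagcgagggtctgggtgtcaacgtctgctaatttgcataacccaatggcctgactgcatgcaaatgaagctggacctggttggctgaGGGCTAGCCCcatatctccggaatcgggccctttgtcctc
In Casp4 the capitals are 2 overlapping NF-kB matches, GGGGATTTCC and GGGATTTCCC, between 93 and 83 bases before the start. In Ier3 they are 1 NF-kB match, GGAGTTCCCC, read on the strand of the gene and matching on the other, 92 to 83 bases before the start. In Gadd45a they are a p53 half-site match, GGGCTAGCCC, 40 to 31 bases before the start. The promoter of Bcl2l11 held none of the 4 motifs. An NF-kB match was present in 4 of the 32 promoters (12.5%), those of Casp4, Ier3, Bbc3 and Aifm1, against 3.75% of 27025 promoters of the same length. The log2 ratios of Bbc3 and Aifm1 were -0.12 and 0.11. A p53 half-site match was present in 4 (12.5%, those of Gadd45a, Bmf, Mdm2 and Ccng1) against 7.18%, a STAT match in 1 (3.13%, Casp12) against 7.18%, and an AP-1 match in 0 against 6.87%. A match shows letters in a window and not binding.

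Further genes of the same pathways were looked up in lists of 60 genes that are not among the 40. Of these, 46 were measured; a difference of 2-fold or more was seen upward for 4 and downward for 1 (8.70% and 2.17%, against the 2.12% and 1.85% of all genes), and their median log2 ratio was 0.00. In the death receptor arm 4 of 8 measured genes were at least 1.5-fold higher and none lower by as much, beside 5.59% and 6.56% of all genes. Among the 4, Tnfrsf21 was above the floor on the PC-3 array alone, with signals of 93.7 with PC-3 medium and 46.4 with MDA-PCa2b medium. Its ratio was therefore a lower bound. Fas, a death receptor gene that is also a p53 target, had signals of 1256 with PC-3 medium and 408 with MDA-PCa2b medium, 3.08-fold higher. Traf2, an adaptor of TNF receptors, had 311 with PC-3 medium and 152 with MDA-PCa2b medium (2.04-fold higher). The TNF receptor gene Tnfrsf1a had 2694 with PC-3 medium and 1650 with MDA-PCa2b medium (1.63-fold higher), and Fadd, the adaptor between Fas and caspase-8, was slightly lower at 169 and 203. The ligand genes Fasl and Tnfsf10 were below the floor on both arrays.

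Inhibitor genes of the IAP family split. Birc3, an NF-kB target whose product ubiquitinates signalling proteins at TNF receptors, had signals of 1546 with PC-3 medium and 501 with MDA-PCa2b medium, 3.09-fold higher, and its close relative Birc2 had 1021 and 624 (1.64-fold higher). Birc5, the survivin gene, which is expressed in dividing cells, had 707 with PC-3 medium and 1092 with MDA-PCa2b medium, 1.54-fold lower. Cflar, which encodes the caspase-8 inhibitor Flip, gave log2 ratios of 0.33, 0.39 and -0.09 by its probe sets. Among further Bcl2 relatives Bnip3, a hypoxia-induced gene of mitophagy, was 2.04-fold higher, with signals of 5311 with PC-3 medium and 2609 with MDA-PCa2b medium.

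Of 18 measured further p53 targets 16 lay within 1.5-fold, a share close to the 87.8% of all genes, and the others were Fas and Sesn2. The median log2 ratio was 0.00. Cdkn1a, the gene of the cell cycle inhibitor p21 and the best known p53 target, had signals of 5603 with PC-3 medium and 6087 with MDA-PCa2b medium. Sesn2, a stress-induced regulator of nutrient signalling, had 127 with PC-3 medium and 305 with MDA-PCa2b medium, 2.40-fold lower by its brightest probe set and -0.22 on the log2 scale by its other. The 9 measured p53 regulators all lay within 1.5-fold, beside the same 87.8% of all genes, and their log2 ratios ranged from -0.41 for the phosphatase gene Ppm1d to 0.23 for the p53 relative Trp63.

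**Figure D4:**
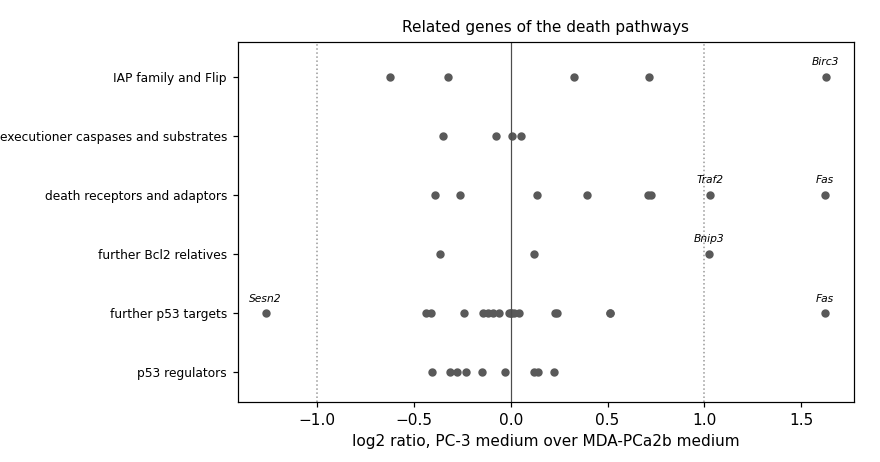
Log2 ratios, PC-3 over MDA-PCa2b medium, of the measured genes in 6 lists of related pathway genes; each point is 1 gene by its brightest probe set, dotted lines mark 2-fold and genes beyond them are named. Birc3 and Fas lie near 1.6 and Sesn2 near -1.3, while all p53 regulators lie between -0.41 and 0.23.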

How the data were processed

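Total RNA of 2 primary mouse osteoblast cultures was hybridised to 1 array each, from 5 µg RNA per the labels' protocols. The submitters' processing notes name GCOS 1.4 and MAS5 for the deposited values, which the authors gave as linear intensity, 1 signal per probe set. The sources used here do not give background settings, detection calls or the scaling target. Of 45101 probe sets 64 controls were left out, and 34945 probe sets had 1 gene in the platform annotation; probe sets with several genes were not named. The 38 matched genes were found by Entrez identifier in a RefSeq table under the same symbols. Signals under the 50th percentile of their array were set to that floor before log2, a ratio with 1 array at the floor was a bound, and with both it was not given. Counts include bounds. The number of arrays limits the precision: there is no replicate error and no p-value. Groups came from the source labels, since the title of the PC-3 array also holds part of the name MDA-PCa2b.

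The genes, their roles, the related lists and the thresholds were chosen with earlier results of these data known. Values are given in full for members at least 1.5-fold different or with a bound, for related genes at least 2-fold different (at most 4 a list), and for examples of each role, some chosen after their values were seen. Alternatives changed the floor, scaling, probe set choice, threshold and gene classes. Scripts (Python 3.11.15, pandas 2.3.3) were tested on simulated data. Both value columns were used.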

Additional observations from a re-analysis of the deposited data

How the results depend on the processing

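No paired analysis was possible because each medium had 1 array. The count of apoptosis genes at least 2-fold higher (5) was 6 with a 25th-percentile floor or with log2(signal + 16) and no floor, where Bik is added, 4 with a 75th-percentile floor, which drops Casp4, and 5 with quantile normalization, with the median ratio set to 0 and with probe sets averaged, where Bid takes the place of Bcl2l11. It was 3 without probe sets of the suffixes _x_at, _s_at and _a_at, which leaves Ier3 without a probe set and Bcl2l11 at a log2 ratio of 0.65; it was 10 at 1.5-fold and 2 at 3-fold. None was at least 2-fold lower under any of these alternatives, and 2 were at 1.5-fold. Alternatives at 1.5-fold were added after seeing the data: 8 to 11 genes were higher, and the 2 lower became 1 with a 75th-percentile floor, with probe sets averaged or without the suffixed probe sets, and 0 with the median set to 0 or with no floor. The median of survival genes, 0.09, was -0.022 with probe sets averaged, which moved death minus survival from 0.02 to 0.14; adding Mdm2 and Ier3 to survival gave -0.10. Of related genes 4 were at least 2-fold higher and 1 lower. At 1.5-fold these were 7 and 2 (15.2% and 4.35%, beside 5.59% and 6.56% of all genes), and at 3-fold 2 and 0. The 1 lower was 2 with a 25th-percentile floor or with no floor, and 0 with a 75th-percentile floor or probe sets averaged. Among the 12 genes at least 1.5-fold different, Bcl2 had no value with a 75th-percentile floor. Ier3, Bmf and Bok had none without the suffixed probe sets. Of the 80 remaining values under the alternatives, 80 kept their sign and 73 moved by less than 0.24. The others include the bound of Casp4 (0.79 with a 75th-percentile floor and 2.87 with no floor) and Bmf and Bak1 (0.14 and 0.11 with a 75th-percentile floor). Most of this agreement was fixed in advance. All alternatives used the same 2 arrays, and the genes were picked as at least 1.5-fold different. A changed floor shrinks or widens a ratio rather than reversing it, and averaging leaves genes with 1 measured probe set as they were. The agreement therefore says nothing on error between cultures. Over all genes the counts at least 2-fold higher and lower were 240 and 210, 684 and 589 with a 25th-percentile floor, 527 and 436 with no floor, and 127 and 77 with a 75th-percentile floor. They were 241 and 214 with quantile normalization, 257 and 187 with the median set to 0, and 229 and 188 with probe sets averaged. Without the suffixed probe sets they were 206 and 181. At 3-fold 96 of the 11335 genes were higher and 46 lower, and at 1.5-fold 634 and 744. The all-gene counts thus changed more with the floor than those of the apoptosis genes. Shares under the other floors were not computed. Signal over background limits Casp1, Casp4 and Perp, which lay near the floor on at least 1 array. It also limits the dimmest measured probe sets of several genes, among them Bcl2, Bcl2l1, Xiap and Diablo.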

Other observations

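The probe sets of Trp53inp1, a p53-induced gene that acts in autophagy and cell death and was chosen here after its values were seen, differed in the size of the ratio. Its brightest probe set gave signals of 3477 with PC-3 medium and 2952 with MDA-PCa2b medium (log2 ratio 0.24), while its second gave 376 with PC-3 medium and 174 with MDA-PCa2b medium (1.11). Among the apoptosis genes 17 had several probe sets measured on both arrays, and these pointed in 1 direction for 13 of them. The exceptions were Bcl2l1, Xiap, Diablo and Ccng1. The BH3-only gene Bik was below the floor on both arrays, with signals of 46.8 with PC-3 medium and 13.4 with MDA-PCa2b medium by its brightest probe set.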
